A study of Homo sapiens with 12 samples.

Results

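The oxysterol binding protein family was followed in TIGK cells through 10 of its genes: OSBP, OSBP2, OSBPL1A, OSBPL2, OSBPL3, OSBPL5, OSBPL6, OSBPL8, OSBPL9 and OSBPL10. They were picked by gene name from the 58735 genes of the count table, because OSBP2 ranked number 4 by p-value among the 14279 genes tested between arginine and control at 24 h. The values of that comparison chose the family, so they are given here as a description and carry no p-value. TIGK are keratinocytes of the human gingiva made immortal with telomerase (hTERT), and they form a single established cell line. Every culture was grown in 48 mM glucose, so no group has a usual glucose level. Arg groups received 500 μM L-Arginine and control groups received none. The methods of the study give a base medium without arginine for its assays. Control therefore stands for culture with no arginine added, and not for a usual medium without a supplement. RNA was collected after 24 or 48 h, which gives 4 groups of 3 libraries (A, B and C), 12 in all. Nothing in the labels says that the 3 libraries of a group came from separate passages, so the p-values measure the spread between these libraries, which may be technical.

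The libraries held from 16542243 to 19040964 counts, with a median of 18178433.5. Each of the 10 genes passed the filter on low counts in every comparison. The 8 keratinocyte markers, among them KRT5 and KRT14, summed to between 36924 and 48915 CPM (counts scaled to a common library total) in every library. The 5 fibroblast markers summed to between 30.2 and 54.3 CPM at 24 h and between 72.5 and 102 CPM at 48 h, with COL1A2 at 1 count or none in each library, and their part in the differences over time was not tested. By group, they summed to 34.2 to 54.3 CPM in control and 30.2 to 41.0 CPM with Arg at 24 h, and to 85.3 to 102 CPM and 72.5 to 100.1 CPM at 48 h. The endothelial, leukocyte and melanocyte markers summed to at most 3.05 CPM. Replicate B of control at 48 h stood apart. Of the 947 genes that passed an adjusted p of 0.05 between Arg and control at 24 h, 697 (73.6%) were closer in that library to the Arg mean at 48 h than to the mean of control replicates A and C. The same held for 8 of the 10 family genes, the exceptions being OSBP and OSBPL3. The share over all genes was not taken, so nothing is read from this count. OSBPL2 and OSBPL9 are in it, though in that library (74.5 and 109.2 CPM) both lay above every Arg library at 48 h. Mitochondrial genes took 1.55% of counts in that library, the highest share of the 12, against 0.906% and 0.707% in replicates A and C, and 1.14% to 1.31% with Arg at 48 h. The part of this share in the results was not tested. Group differences of family genes that this library moved by more than 1.5 times, or across the threshold, are given with and without it. This library was set apart after its values were seen to lie near the Arg libraries. Leaving it out therefore favors a difference with Arg, and values and calls without it are descriptions.

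Oxysterol binding proteins carry sterols and phospholipids between membranes that lie close together, at membrane contact sites. OSBP, the founding member, brings cholesterol from the endoplasmic reticulum to the Golgi and takes the phosphoinositide PI4P back, tethered to the endoplasmic reticulum by the VAP proteins, and it binds oxysterols such as those made from cholesterol by hydroxylases. OSBP2, also called ORP4, is its closest relative. Keratinocytes form a stratified epithelium that uses cholesterol in its barrier lipids.

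The promoters of OSBP2 and OSBPL5 are printed because these genes had the widest differences of the 10 at 24 h, in opposite directions. They are the 250 bases upstream of RefSeq start sites on GRCh38.p14, the build of the count table, and capitals mark matches to an AP-1 site (TGANTCA) or a GC box (GGGCGG, or CCGCCC on the other strand). The motifs were chosen after the data were seen. OSBP2 has a pair of start sites in that table, both inside the gene span of the count table, and gene counts do not show which was used.
OSBP2 first start, chr22:30764003-30764252, plus strand: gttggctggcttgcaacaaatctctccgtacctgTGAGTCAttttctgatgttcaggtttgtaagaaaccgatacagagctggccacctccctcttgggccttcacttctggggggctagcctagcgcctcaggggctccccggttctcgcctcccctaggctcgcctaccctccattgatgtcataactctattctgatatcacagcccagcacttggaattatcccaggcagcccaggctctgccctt
OSBP2 second start, chr22:30822266-30822515, plus strand: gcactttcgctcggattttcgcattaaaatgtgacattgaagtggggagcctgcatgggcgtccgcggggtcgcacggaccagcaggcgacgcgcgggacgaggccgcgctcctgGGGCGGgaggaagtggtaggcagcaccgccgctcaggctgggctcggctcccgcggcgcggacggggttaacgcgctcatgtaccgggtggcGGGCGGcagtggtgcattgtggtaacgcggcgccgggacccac
OSBPL5, chr11:3165311-3165560, minus strand: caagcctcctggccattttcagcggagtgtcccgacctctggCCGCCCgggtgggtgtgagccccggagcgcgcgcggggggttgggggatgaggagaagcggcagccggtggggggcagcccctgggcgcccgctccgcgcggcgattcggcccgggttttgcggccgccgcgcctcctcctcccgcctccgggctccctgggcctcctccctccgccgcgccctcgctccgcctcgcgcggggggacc
The first OSBP2 promoter held 1 AP-1 site and had a GC content of 55.2%, near the median of 58.0% over 35116 promoters. These promoters, called all promoters below, leave out 1 chromosome that holds none of the 10 genes. The second OSBP2 promoter held 2 GC boxes with a GC content of 69.2%, and that of OSBPL5 held 1 GC box with 78.4%. Over the 17 promoters of the 10 genes, 3 held an AP-1 site and 10 a GC box, against 6.57% and 42.6% of all promoters. The E-box CACGTG was in 2 of the 17 (6.34% of all promoters), and the CARE core TGATGNAA was in none (3.14% of all promoters). These matches are letters on either strand and not shown to be bound.

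OSBP2 (ENSG00000184792, chromosome 22, 30693782 to 30907824, plus strand) was lower with Arg at 24 h in every library. Its counts were 820, 502 and 745 in control replicates A, B and C, and 86, 120 and 106 with Arg. On the CPM scale, scaled by TMM, the control libraries stood at 44.4, 28.3 and 43.1 CPM and the Arg libraries at 4.83, 6.98 and 5.69 CPM. The groups did not overlap, and the means were 38.6 ± 8.93 and 5.83 ± 1.08 CPM (SD, n = 3). This was a difference of −2.73 on the log2 scale (SE 0.18), or 6.63-fold lower with Arg. In the same libraries the mitochondrial share was 1.20%, 1.30% and 1.23% of counts in control and 0.802%, 0.624% and 0.776% with Arg, without overlap. The fibroblast marker DCN was also lower with Arg, at a mean of 19.5 against 31.7 CPM in control (log2 difference −0.70, SE 0.18), with libraries that overlapped. Of the other fibroblast markers, COL1A1 had 12.4 CPM in control and 13.0 CPM with Arg, a difference of 0.06 (SE 0.15). LUM (0.80 and 0.85 CPM) differed by 0.10 (SE 0.55) and PDGFRB (1.03 and 0.91 CPM) by −0.19 (SE 0.51). COL1A2 had no counts. At such low levels LUM, PDGFRB and COL1A2 cannot show whether they followed DCN. The part of the mitochondrial share or of DCN in the OSBP2 difference was not tested. In bulk RNA, fewer cells that hold a transcript and less transcript per cell cannot be told apart.

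At 48 h the control libraries of OSBP2 split. Replicates A and C had 360 and 357 counts (18.9 and 19.1 CPM), while replicate B had 84 counts (4.35 CPM), below each of the Arg libraries. The Arg libraries had 97, 90 and 80 counts (5.05, 5.35 and 4.60 CPM). The means were 14.1 ± 8.45 CPM in control and 5.00 ± 0.378 CPM with Arg (SD, n = 3). The difference was −1.50 on the log2 scale (SE 0.41, 95% interval −2.38 to −0.62), 2.82-fold lower with Arg, and it did not pass the test (edgeR adjusted p = 0.176). Without control replicate B it was −1.92 (SE 0.15), 3.80-fold lower (edgeR adjusted p = 3.77e-09). This is a description and not a further test, because the library left out was set apart for its likeness to Arg. Without it 15.9% of all genes passed, against 0.117% with it. The Arg difference of OSBP2 was smaller in size at 48 h than at 24 h by 1.23 on the log2 scale (SE 0.48). Without that library it was smaller by 0.80 (SE 0.25). These 2 values use the comparison that chose OSBP2, and that choice favors a large difference at 24 h. They are descriptions with no p-value, and no change between the times is read from them.

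**Figure D1:**
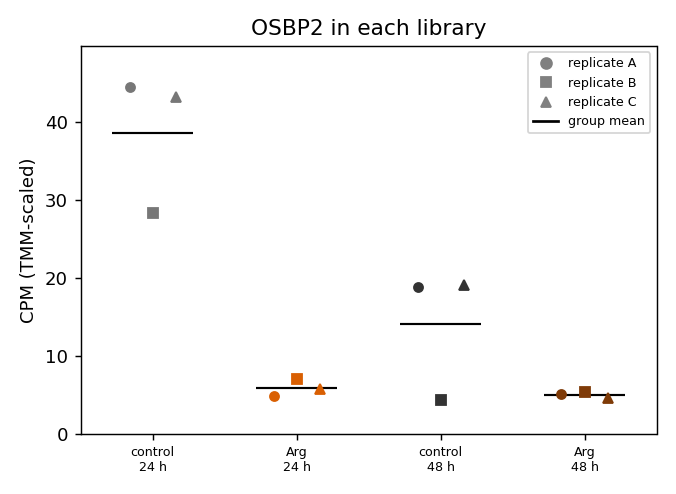
OSBP2 in each library, in CPM scaled by TMM, by treatment and time, with circles for replicate A, squares for B, triangles for C and a line at the mean of each group. The Arg libraries sit between 4.60 and 6.98 CPM at both times, and control replicate B at 48 h (4.35 CPM) sits with them, apart from replicates A and C.

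In control cells OSBP2 was lower at 48 h than at 24 h by 1.45 on the log2 scale (SE 0.37), and by 1.02 (SE 0.16) without replicate B of 48 h. With Arg the difference between the times was −0.22 (SE 0.20). Both time differences share their 24 h libraries with the comparison that chose the gene, so no p-value is given for OSBP2.

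OSBP, the closest relative of OSBP2, was nearly level between Arg and control. Its Arg libraries at 24 h had 102, 95.1 and 95.6 CPM against 96.4, 101 and 93.0 CPM in control, and the groups overlapped (difference 0.01 on the log2 scale, SE 0.08). At 48 h they had 105, 115 and 114 CPM against 105, 107 and 105 CPM, a log2 difference of 0.08 (SE 0.06, 95% interval −0.06 to 0.22, edgeR adjusted p = 0.645). Between the times, OSBP did not pass the test in control (log2 difference 0.12, SE 0.07, edgeR adjusted p = 0.262) or with Arg (0.19, SE 0.07, edgeR adjusted p = 0.0517). Its libraries at 48 h lay above those at 24 h without overlap, both in control and with Arg.

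The sum of the 10 genes per kilobase of exonic length shows what share OSBP2 held. It was between 6.70% and 10.3% of the family sum in the control libraries at 24 h, and at most 1.85% in the Arg libraries. At 48 h it was 4.57%, 1.04% and 4.56% in control replicates A, B and C and between 1.09% and 1.24% with Arg. Without OSBP2, the sum of the other 9 genes lay between 55.3 and 63.8 CPM per kilobase in all 12 libraries. Lengths are those of all exons in the table, so transcript choice can shift these levels.

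Within each group, OSBP had the highest level per kilobase, at 17.6, 17.7, 19.2 and 20.3 CPM per kilobase in control 24 h, Arg 24 h, control 48 h and Arg 48 h. OSBPL8 and OSBPL9 followed, at 10.6 to 12.3 CPM per kilobase. OSBP2 took the fourth place in control at 24 h with 5.76 ± 1.33 CPM per kilobase, where its libraries overlapped those of OSBPL1A, OSBPL2 and OSBPL3. It took the ninth place with Arg at 24 h (0.871 ± 0.162) and 48 h (0.747 ± 0.0564), and the eighth in control at 48 h (2.11 ± 1.26), in CPM per kilobase. At 24 h its libraries with Arg overlapped those of OSBPL6, just above it, and in control at 48 h those of OSBPL10, OSBPL5 and OSBPL6. In control at 48 h its replicates A and C (2.82 and 2.85) lay above every OSBPL10 library (at most 2.69). Replicate B (0.650) brought its mean below that of OSBPL10. OSBPL5 was lowest in both groups at 24 h and OSBPL6 in both at 48 h.

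**Figure D2:**
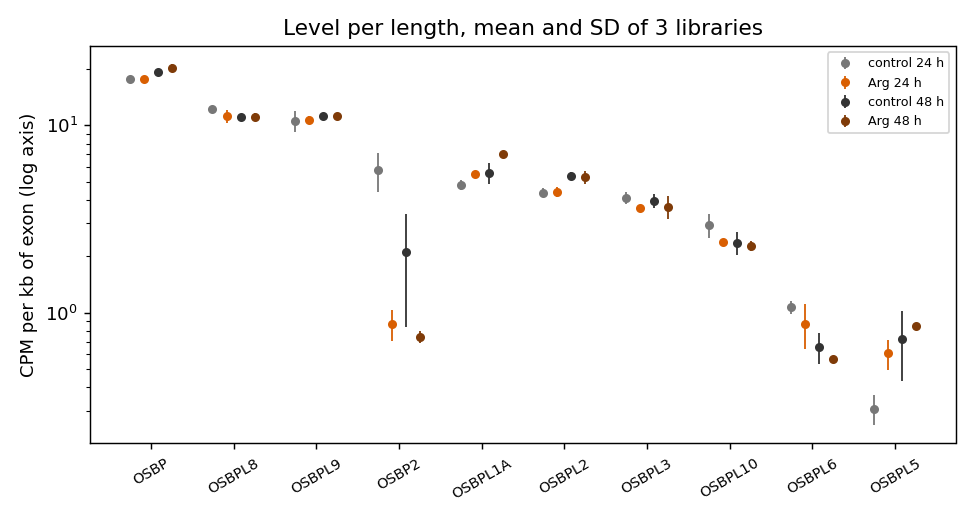
Level of each of the 10 genes per kilobase of exonic length, in CPM per kilobase, in the 4 groups. OSBP is highest in each group, and OSBP2 goes from 5.76 CPM per kilobase in control at 24 h to 0.871 with Arg. Points are means of 3 libraries and bars are 1 SD.

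OSBPL5 and OSBPL8 are anchored in the endoplasmic reticulum and exchange phosphatidylserine for PI4P at the plasma membrane. OSBPL5 (ENSG00000021762, chromosome 11, 3087116 to 3166739, minus strand) was higher with Arg at 24 h, at 3.65, 5.30 and 4.67 CPM against 1.84, 2.37 and 2.66 CPM in control. The groups did not overlap, and the log2 difference was 0.98 (SE 0.26). At 48 h the control libraries spread from 3.43 CPM in C and 5.08 CPM in A to 7.77 CPM in B, and the Arg libraries had 6.20, 6.60 and 6.21 CPM. The groups overlapped, with a log2 difference of 0.22 (SE 0.26, edgeR adjusted p = 0.748), and of 0.57 (SE 0.22, edgeR adjusted p = 0.0814) without control replicate B. In control cells OSBPL5 rose from 24 to 48 h by 1.25 on the log2 scale (SE 0.31, edgeR adjusted p = 0.0174), and by 0.90 (SE 0.29, edgeR adjusted p = 0.0487) without that library. With Arg the difference over time was 0.48 (SE 0.20, edgeR adjusted p = 0.0790).

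OSBPL8 varied little. Its libraries ranged from 96.8 to 112 CPM with Arg and 110 to 117 CPM in control at 24 h, and from 97.1 to 107 CPM with Arg and 97.3 to 105 CPM in control at 48 h. It passed the test in none of the 3 comparisons tested for it, with edgeR adjusted p of 0.991 for Arg at 48 h (log2 difference 0.00, and 0.02 without control replicate B), 0.192 for time in control and 0.910 for time with Arg.

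OSBPL1A works on late endosomes, where it senses cholesterol, and OSBPL2 delivers cholesterol to the plasma membrane. OSBPL1A had 44.7, 42.9 and 45.4 CPM with Arg at 24 h and 36.6, 41.1 and 38.7 CPM in control. At 48 h it had 54.4, 58.9 and 55.8 CPM with Arg and 40.5, 51.2 and 42.7 CPM in control, where B was again the library nearest to the Arg group. These groups did not overlap at either time. The log2 difference at 48 h was 0.33 (SE 0.09, edgeR adjusted p = 0.197). Without control replicate B it was 0.44 (SE 0.08, edgeR adjusted p = 0.000464), again a description. From 24 to 48 h OSBPL1A rose with Arg by 0.35 on the log2 scale (SE 0.08, edgeR adjusted p = 0.00308), and in control the difference was 0.21 (SE 0.11, edgeR adjusted p = 0.182), or 0.10 (SE 0.10) without replicate B of 48 h. OSBPL2 differed little with Arg at 48 h (log2 difference −0.03, SE 0.08, edgeR adjusted p = 0.883, and 0.01, SE 0.07, without control replicate B). It rose over time in control, from 60.5, 55.9 and 55.1 CPM to 68.3, 74.5 and 68.7 CPM, by 0.31 on the log2 scale (SE 0.08, edgeR adjusted p = 0.0237). With Arg it rose from 56.0, 61.8 and 55.7 CPM to 63.3, 70.3 and 73.4 CPM, by 0.26 (SE 0.08, edgeR adjusted p = 0.0257).

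OSBPL3 and OSBPL6 form a subfamily that reaches the plasma membrane from the endoplasmic reticulum. OSBPL6 fell over time in control, from 13.0, 11.2 and 12.7 CPM to 8.02, 5.91 and 8.68 CPM, a log2 difference of −0.70 (SE 0.18, edgeR adjusted p = 0.0171). With Arg it fell from 12.9, 9.66 and 7.63 CPM to 6.82, 6.36 and 6.27 CPM (−0.63, SE 0.19, edgeR adjusted p = 0.0160). Neither pair of time groups overlapped. Between Arg and control at 48 h its log2 difference was −0.22 (SE 0.19, edgeR adjusted p = 0.646), and −0.36 (SE 0.17, edgeR adjusted p = 0.168) without control replicate B. OSBPL3 ranged from 26.1 to 36.3 CPM over all 12 libraries and passed none of its tests at 48 h or over time (edgeR adjusted p from 0.724 to 0.893).

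OSBPL10 forms a subfamily with OSBPL11, and OSBPL9 stands in one of its own. OSBPL10 had 29.9, 27.9 and 27.7 CPM with Arg at 24 h against 40.6, 30.5 and 34.5 CPM in control, a log2 difference of −0.31 (SE 0.11) with no overlap. At 48 h it was 28.7, 27.7 and 25.4 CPM with Arg against 32.2, 24.4 and 28.4 CPM in control, and the groups overlapped (−0.06, SE 0.11, edgeR adjusted p = 0.860). Without control replicate B the difference was −0.15 (SE 0.10, edgeR adjusted p = 0.322). OSBPL9 lay between 85.4 and 109.7 CPM in all 12 libraries and passed none of its tests (edgeR adjusted p from 0.513 to 0.984), with a log2 difference at 48 h of 0.00, and of 0.01 without control replicate B. Both genes share part of their span with a gene on the other strand, OSBPL9 with NRDC (42928 counts over the 12 libraries, against 22677) and OSBPL10 with ZNF860 (981 against 6489). The strand setting of the counting is not given in the sources used here, so the reads of these pairs may not be fully separated. OSBPL7 and OSBPL11, family genes outside the 10, had log2 differences with Arg at 48 h of 0.05 (SE 0.37) and −0.05 (SE 0.12), and of 0.50 (SE 0.38) and −0.14 (SE 0.10) without control replicate B. Over time in control OSBPL11 differed by −0.13 (SE 0.12), and by −0.04 (SE 0.11) without replicate B of 48 h. In control OSBPL7 rose over time from 0.710 to 2.10 CPM (log2 difference 1.56, SE 0.43, edgeR adjusted p = 0.0256), and without replicate B of 48 h the difference was 1.11 and did not pass (edgeR adjusted p = 0.110).

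**Figure D3:**
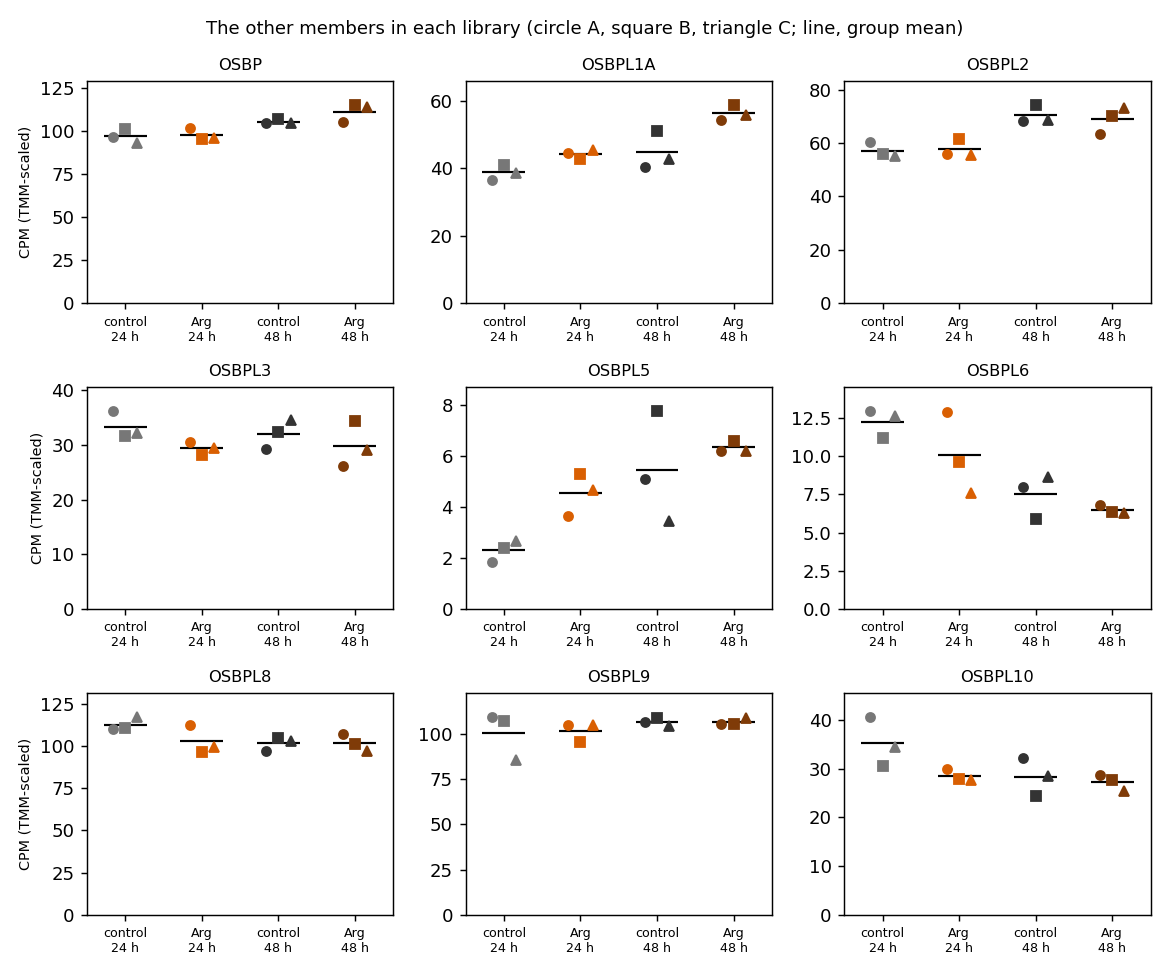
The other 9 genes in each library, in CPM scaled by TMM, one panel a gene, with circles for replicate A, squares for B, triangles for C and a line at each group mean. OSBPL5 lies between 1.84 and 2.66 CPM in control at 24 h and between 6.20 and 6.60 CPM with Arg at 48 h, while OSBP, OSBPL8 and OSBPL9 stay between 85.4 and 117 CPM.

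Counted together, 2 of the 10 genes passed an adjusted p of 0.05 between Arg and control at 24 h, OSBP2 lower and OSBPL5 higher, where 6.63% of all genes tested did. The groups did not overlap for 5 of the 10, beside 26.2% of all genes. Since the rule used this comparison, nothing is read from these counts. At 48 h edgeR called 0 of the 10, where 0.117% of all genes passed, and DESeq2 called 0 as well. At an unadjusted p of 0.05 there were 2, OSBP2 lower and OSBPL1A higher, against 13.4% of all genes. Without control replicate B there were 4, OSBP2 and OSBPL6 lower and OSBPL1A and OSBPL5 higher, against 29.3% of all genes. Without control replicate B, OSBP2 and OSBPL1A passed the adjusted test, 2 of 10 beside 15.9% of all genes. The groups did not overlap for 1 of the 10 genes at 48 h, OSBPL1A, beside 17.1% of all genes. The median log2 difference of the 10 genes at 48 h was −0.02, against 0.00 over all genes tested.

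**Figure D4:**
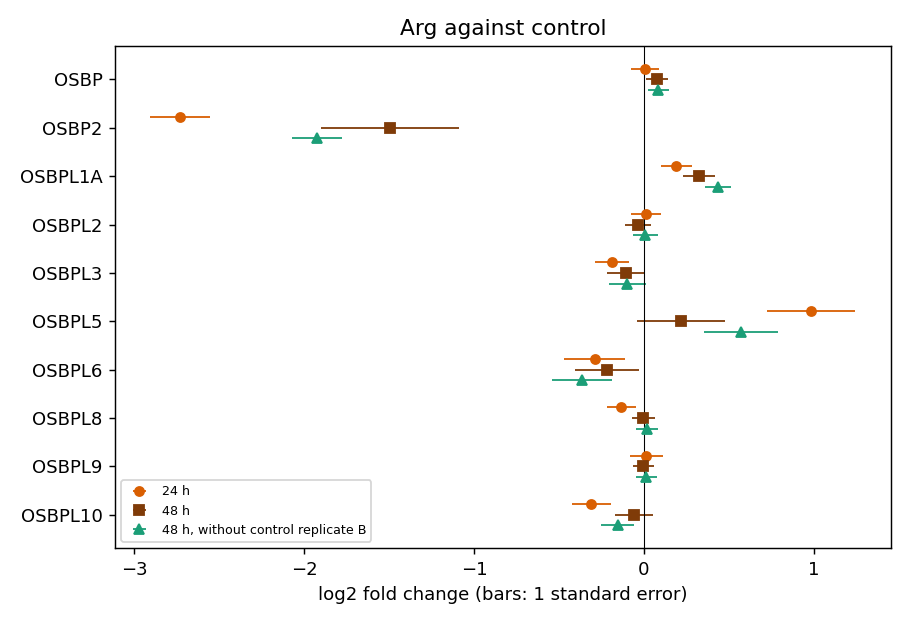
Log2 fold change of Arg against control for each gene at 24 h, at 48 h and at 48 h without control replicate B, with bars of 1 standard error. OSBP2 lies at −2.73, −1.50 and −1.92, OSBPL5 at 0.98, 0.22 and 0.57, and the other genes within 0.44 of 0.

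Over time, 3 of the 9 genes other than OSBP2 passed the adjusted test in control, OSBPL2 and OSBPL5 higher and OSBPL6 lower, beside 19.9% of all genes. With Arg 3 of the 9 passed, OSBPL1A and OSBPL2 higher and OSBPL6 lower, beside 28.3% of all genes. The groups of the 2 times did not overlap for 6 of the 10 genes in control and for 6 with Arg, beside 39% and 42.2% of all genes. The control calls turned on single libraries. In control, calls over all genes also changed as libraries were left out, with the range given at the end. For time with Arg that range is not given. The losses below are thus not shown to be particular to these genes. Without control 24 h replicate A or replicate C, edgeR called 0 of the 10 (4 at an unadjusted p of 0.05 in each case, where 34.1% of all genes passed with every library). The share of all genes that passed in these 2 fits is not given, so these counts are not read against all genes. The adjusted p was then 0.0585 and 0.113 for OSBPL2, 0.0888 and 0.0530 for OSBPL5, and 0.0796 and 0.0695 for OSBPL6. OSBPL2 was also lost without control 48 h replicate A (edgeR adjusted p = 0.0557) or C (0.0511). Without control 48 h replicate B, OSBPL2, OSBPL5 and OSBPL6 still passed, beside 16.4% of all genes. With Arg, OSBPL2 was lost without 24 h replicate C (edgeR adjusted p = 0.0940), 48 h replicate B (0.0934) or 48 h replicate C (0.123), and OSBPL6 without 24 h replicate A (0.110) or 48 h replicate C (0.0510). The call of OSBPL1A with Arg held in each of the 12 alternatives. The Arg difference at 48 h minus that at 24 h, which equals the time difference with Arg minus that in control, had a 95% interval that held 0 for each of the 9 genes other than OSBP2, with and without control replicate B of 48 h. No interval is read for OSBP2, which the 24 h comparison chose. For OSBPL5, the Arg difference at 48 h minus that at 24 h was −0.76 (SE 0.37, 95% interval −1.53 to 0.0028) on the log2 scale, and −0.41 (SE 0.33, 95% interval −1.11 to 0.28) without control replicate B of 48 h.

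**Figure D5:**
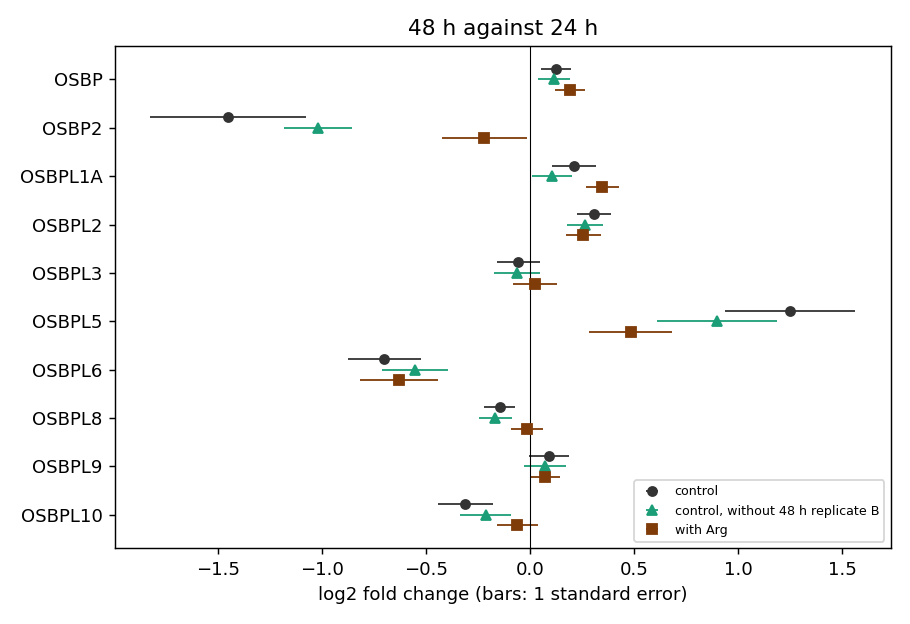
Log2 fold change of 48 h against 24 h for each gene in control, in control without replicate B of 48 h, and with Arg, with bars of 1 standard error. OSBPL6 lies below 0 in each (−0.70, −0.55 and −0.63) and OSBPL2 above 0 (0.31, 0.26 and 0.26), while OSBP2 lies at −1.45 in control and −0.22 with Arg.

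Among 22 partners of lipid exchange at contact sites, 2 passed the adjusted test at 24 h, both lower with Arg, in the comparison with 6.63% of all genes called. PITPNM1, a phosphatidylinositol transfer protein, went from 48.5 to 34.6 CPM (log2 difference −0.49, SE 0.11). NPC1, which lets cholesterol out of lysosomes, went from 83.9 to 67.6 CPM (−0.31, SE 0.08). At 48 h 0 of 22 passed in edgeR, beside 0.117% of all genes. At an unadjusted p of 0.05 there were 2 of 22, both lower, beside 13.4% of all genes. Without control replicate B 5 passed the adjusted test, all lower, where 15.9% of all genes passed. Over time 3 rose and 2 fell in control, among them STARD4, a sterol carrier (0.55), PI4KA, a kinase that makes PI4P (0.46), ACBD3, a Golgi adaptor for such kinases (0.24), and VAPA, the tether of OSBP (−0.32). These 5 of 22 stood beside 19.9% of all genes, and without control replicate B of 48 h 3 rose and 1 fell, beside 16.4%. With Arg 4 rose and 1 fell over time, with the largest in STARD5 (1.28), PI4KA (0.46), NPC1 (0.26) and ACBD3 (0.24), all log2 differences, and these 5 of 22 stood beside 28.3% of all genes. STARD5 was at a low level, 0.970 CPM at 24 h and 2.37 CPM at 48 h (SE of the difference 0.40). The median of this list was −0.03 for Arg at 48 h and 0.04 and 0.03 for time in control and with Arg, against 0.00, 0.01 and 0.00 over all genes.

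Of 18 genes that make, sense or export oxysterols and sterols, 16 were tested. At 24 h 1 passed, where 6.63% of all genes did: CH25H, the enzyme that turns cholesterol into an oxysterol, at 3.27 CPM in control and 1.20 CPM with Arg (log2 difference −1.45, SE 0.33). At 48 h 0 passed in edgeR, beside 0.117% of all genes, and 0 at an unadjusted p of 0.05, beside 13.4%. Without control replicate B 2 were higher and 1 lower of the 17 then tested, beside 15.9% of all genes. In control 3 rose and 2 fell over time, beside 19.9% of all genes, with ABCG1, a sterol exporter (0.82), and SREBF1 (0.73) and SREBF2 (0.40), which control lipid synthesis, higher and CH25H lower (−0.96, edgeR adjusted p = 0.0498). Without control replicate B of 48 h 3 rose and 2 fell of 17 tested, beside 16.4% of all genes. With Arg 6 rose and 1 fell, beside 28.3% of all genes, the largest being the exporter ABCA1 (1.53, SE 0.27, edgeR adjusted p = 0.000274), HSD3B7 of bile acid synthesis (1.11), ABCG1 (1.10) and SREBF1 (0.63). HSD3B7 was at a low level, 1.20 CPM at 24 h and 2.59 CPM at 48 h (SE of the difference 0.37). The list's median was 0.03 for Arg at 48 h and 0.09 and 0.15 for time in control and with Arg, in log2 units.

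Across the 12 libraries, the genes whose log2 CPM followed OSBP2 most closely, among 15147 genes, were VEGFA (Pearson r = 0.987), HLA-E (0.978), THOC6 (0.974), PTGES (0.972) and TXNIP (0.972). Those that ran most against it were PTBP2 (−0.980), CNDP2 (−0.971), IGF2BP3 (−0.964), DYNC1LI2 (−0.962) and NALCN (−0.959). These are descriptions over libraries that share their groups. VEGFA, a growth factor for blood vessels, averaged 85.5 CPM in control and 43.7 CPM with Arg at 24 h, and at 48 h had 43.3 CPM in control replicate B against 60.0 and 67.2 CPM in A and C. By Spearman's rank correlation 0 of the 5 nearest genes were shared with those of Pearson's, and without control replicate B 4 of 5 were shared. Within the family, the values for OSBP2 ran with OSBPL10 (r = 0.827) and OSBPL6 (0.677) and against OSBPL5 (−0.851) and OSBPL1A (−0.826).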

How the data were processed

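Gene counts came from RNA sequencing of TIGK cultures, 3 libraries in each of 4 groups. The authors filtered reads with fastp, mapped them with STAR to GRCh38/hg38 and counted genes with featureCounts, per the submitters' processing notes and the methods of the study. The deposited values are raw counts per gene. Tool versions, annotation release and strand setting are not given in the sources used here. All columns of counts were used (0 left out).

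Groups came from the labels. The 2 groups of a comparison were fitted alone with edgeR 4.0.16 in R 4.3.3 (TMM, edgeR's filter on low counts, quasi-likelihood test, no block), and p-values were adjusted by Benjamini and Hochberg over all tested genes, with a threshold of 0.05. SE is the log2 difference divided by the square root of F. Levels are CPM scaled by TMM over 12 libraries. Correlations used log2 CPM with a prior count of 2. Alternatives were DESeq2 1.42.0, library size only, no filter, all 12 libraries in one model, the replicate letter as a block, and leaving out each library. The list counts without control 48 h replicate B were added after the data were seen. The 2-group edgeR fits of the 4 comparisons were checked on simulated counts; the model of all 12 libraries and DESeq2 were not. Exact permutation was not used, since 3 against 3 allows no p under 0.1.

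The family members and both gene lists were chosen with earlier results of these data known. Named genes were the 10 members, OSBPL7 and OSBPL11, at most 4 genes a list and comparison with the largest difference among those with an adjusted p under 0.05, the 5 genes most like and the 5 least like OSBP2, and genes that overlap a member with at least 1% of its counts. Promoters were taken from RefSeq on GRCh38.p14, with 17 entries matched for 10 members by symbol.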

Additional observations from a re-analysis of the deposited data

How the results depend on the processing

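The letters A, B and C do not pair the libraries (correlation of deviations from −0.06 to 0.13), so the fit with a replicate block stands here only. With the block, OSBP2 at 48 h with Arg was −1.31 and passed the test (edgeR adjusted p = 0.0381), with 1 of the 10 genes and 184 of all genes called there. OSBPL10 over time in control was −0.31 with the block and passed (edgeR adjusted p = 0.0231). Without a block it was −0.31 (SE 0.13) with groups that overlapped, and it did not pass (edgeR adjusted p = 0.118). Leaving out control 48 h replicate B as well gave −0.21 (edgeR adjusted p = 0.263). Without the filter on low counts, 2 of the 10 genes and 573 of all genes passed at 48 h, OSBP2 at −1.50 (edgeR adjusted p = 1.85e-13). At 48 h DESeq2 called 169 of all genes and the model of all 12 libraries 41, against 17 in the 2-group fit. In DESeq2, OSBP2 over time in control was −1.46. With library size only, 5 of the 10 genes passed over time with Arg, with OSBP and OSBPL5 added to the 3. The share of all genes that passed in that fit is not given, so nothing is read from this count. The causes of these changes were not tested.

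Signs turned for differences close to 0, none of which passed a test. OSBPL8 with Arg at 48 h was 0.00064 with library size only and 0.00043 in the model of all 12 libraries, OSBPL3 over time in control was 0.0040 with library size only, and OSBPL8 over time with Arg was 0.042 with library size only.

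Leaving out each library in turn gave these lowest and highest values. The 10 genes gave 1 to 3 calls for Arg at 24 h (3 without control replicate B, where OSBPL10 was called at −0.40), 0 to 2 at 48 h (2 without control replicate B), 0 to 4 over time in control and 1 to 3 over time with Arg. At 24 h the call of OSBPL5 was lost in 4 of the 6. Calls over all genes were 359 to 1529 for Arg at 24 h, 6 to 2365 at 48 h (2365 without control replicate B) and 828 to 3304 over time in control. The range over all genes for time with Arg is not given, so nothing is read from the 1 to 3 calls there. OSBP2 was at −2.91 to −2.61 for Arg at 24 h, −1.92 to −1.22 at 48 h, and −1.73 to −1.02 over time in control. For Arg at 24 h, OSBP lay at −0.028 to 0.037, OSBPL2 at −0.038 to 0.056 and OSBPL9 at −0.095 to 0.079. For Arg at 48 h, OSBPL2 lay at −0.077 to 0.022, OSBPL5 at −0.026 to 0.57, OSBPL8 at −0.044 to 0.034, OSBPL9 at −0.021 to 0.014 and OSBPL10 at −0.15 to 0.045. Over time in control, OSBPL3 lay at −0.12 to 0.0050 and OSBPL9 at −0.024 to 0.15. Over time with Arg, OSBPL3 lay at −0.085 to 0.11 and OSBPL8 at −0.058 to 0.050. Of 432 values of the 9 genes other than OSBP2 under an alternative, 378 kept their direction and their side of the threshold. Depth limits OSBPL5 most, with 1014 counts over the 12 libraries.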
